A study of Mus musculus with 12 samples.

Results

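The genes of sterol and fatty acid synthesis were followed in mouse gastrocnemius muscle at rest and after running, with and without cellular Feimin. The set was a list of 33 gene symbols for the enzymes of both routes and the proteins that regulate them, and a member was kept when it had at least 10 counts in 3 or more libraries. All 33 were among the 43432 gene identifiers of the count table, 32 met the count rule (as did 14590 identifiers in all), and the same 32 were among the 14486 genes tested. The member left out was Fads2, the delta-6 desaturase of polyunsaturated fatty acids, with 14 counts in sedentary WT replicate 4 and 0 in the other 11 libraries. The 33 fell into 5 groups by role: 5 regulators, 6 enzymes of the mevalonate route, 10 enzymes from squalene to cholesterol, 6 genes of fatty acid synthesis, and 6 of desaturation and elongation.

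Both routes start from cytosolic acetyl-CoA. The mevalonate route joins acetyl units into mevalonate, phosphorylates and decarboxylates it to isoprene units, and condenses these into squalene, which is closed into a ring and trimmed to cholesterol. The fatty acid route carboxylates acetyl-CoA, builds palmitate, and then lengthens and desaturates it. Transcription of both is driven by the membrane-bound factors SREBP-1 and SREBP-2, which the escort protein SCAP carries to the Golgi for cleavage when sterols are low and which the INSIG proteins hold back when sterols are high. Skeletal muscle is not a major lipogenic tissue, and it also needs the mevalonate route for ubiquinone, dolichol and protein prenylation.

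The 12 libraries were bulk RNA of the calf muscle of male mice in 4 groups of 3. WT mice carried floxed alleles with the gene intact, and their cFeimin MKO littermates carried the knockout (MKO below). The exercised groups were taken after a 90 min run at constant speed, set to 60% of each maximum, and the sedentary groups had not run. The study is about the role of Feimin in endurance and muscle heat. The Cre line, the age of the mice and the time from run to sampling are not stated in the labels. The labels mark each library as its own sample but do not say that each came from 1 mouse, so the p-values cover only the spread between the libraries, which may be technical. Libraries held 14324010 to 14563501 counts, and 3 counts corresponded to 0.181 to 0.222 normalised CPM (CPM, counts scaled to a common library size). B230219D22Rik, taken from general knowledge as the Feimin gene, stood at 21.6 to 29.9 CPM in the WT libraries and 3.52 to 6.13 CPM in the MKO libraries. The tissue label was checked on 7 fast-fibre markers, whose summed level was 97256 to 144450 CPM. The sum of 7 slow-fibre markers was 95.8 CPM in sedentary MKO replicate 3 and 533 to 1662 CPM in the other 11 libraries, so that library stands apart in every resting MKO value. In bulk muscle, fewer cells of a type and less RNA per cell cannot be told apart.

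The upstream sequences of the 5 genes that passed with running in WT or in MKO and of Hmgcs1, the enzyme that opens the mevalonate route, are shown so that the steps called with running can be set beside a step of the same route that was not called. The sequences and their starts come from RefSeq's table for GRCm38.p6, which held 36 promoters for 27 of the 33 members. The 250 bases before each start were searched on both strands for 4 motifs. These were TCACNCCAC (the sterol regulatory element bound by SREBP), CACGTG (E-box), CCAAT (NF-Y box) and GGGCGG (GC box). Capitals mark matches on either strand, so ATTGG is a CCAAT box on the other strand. Stretches that overlap a GENCODE exon of either strand are not printed, so some lines are shorter than the window searched. A second Pmvk window of the table, with 0 matches, and that of Fasn, which passed only in an average over the genotypes and held 3 CCAAT boxes, are not printed.
Hmgcs1, chr13:119690101-119690350, plus strand: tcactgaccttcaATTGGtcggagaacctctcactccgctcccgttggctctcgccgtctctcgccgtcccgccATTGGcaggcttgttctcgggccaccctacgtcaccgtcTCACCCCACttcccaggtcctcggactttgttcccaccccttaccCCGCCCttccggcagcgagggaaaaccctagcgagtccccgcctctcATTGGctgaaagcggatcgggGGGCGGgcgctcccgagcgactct
Mvk, chr5:114444061-114444268, plus strand: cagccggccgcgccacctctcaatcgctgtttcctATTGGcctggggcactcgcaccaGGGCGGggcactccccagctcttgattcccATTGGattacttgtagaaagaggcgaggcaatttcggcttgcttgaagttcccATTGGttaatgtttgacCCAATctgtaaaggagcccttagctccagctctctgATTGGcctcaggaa
Pmvk, chr3:89454291-89454540, plus strand: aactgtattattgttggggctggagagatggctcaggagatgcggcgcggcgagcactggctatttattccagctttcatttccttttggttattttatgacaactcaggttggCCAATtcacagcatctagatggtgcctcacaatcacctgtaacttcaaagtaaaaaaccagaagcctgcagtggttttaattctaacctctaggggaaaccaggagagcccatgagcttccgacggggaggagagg
Mvd, chr8:122443423-122443672, minus strand: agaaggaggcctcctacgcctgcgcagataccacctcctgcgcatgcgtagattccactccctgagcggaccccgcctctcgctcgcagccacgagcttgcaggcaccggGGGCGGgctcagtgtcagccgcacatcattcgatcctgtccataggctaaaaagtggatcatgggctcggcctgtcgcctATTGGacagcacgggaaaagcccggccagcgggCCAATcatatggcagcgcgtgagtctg
Lss, chr10:76531355-76531587, plus strand: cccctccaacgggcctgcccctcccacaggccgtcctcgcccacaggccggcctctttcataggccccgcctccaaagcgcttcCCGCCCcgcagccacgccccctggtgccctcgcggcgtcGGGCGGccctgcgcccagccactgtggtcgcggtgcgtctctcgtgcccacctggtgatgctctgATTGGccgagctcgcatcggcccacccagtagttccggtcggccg
Hsd17b7, chr1:169969242-169969408, minus strand: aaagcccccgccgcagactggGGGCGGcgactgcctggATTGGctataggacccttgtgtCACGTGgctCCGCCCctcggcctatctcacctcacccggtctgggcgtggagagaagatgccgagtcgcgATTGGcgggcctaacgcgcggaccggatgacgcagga

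TCACNCCAC was found in 1 of the 36 member promoters, that of Hmgcs1, as TCACCCCAC 137 bases before the start on the coding strand. It was in 1.05% of the 32851 promoters of the table. CCAAT was in 23 of the 36 member promoters against 33.8% of all, and GGGCGG in 24 against 32.7%. CACGTG was in 6 of the 36 against 6.02% of all. The 208 bases between the divergent starts of Mvk and its neighbour Mmab held 5 CCAAT boxes, and the printed stretch of Pmvk held 1. In all member promoters, 1 pair of matches overlapped. A match is only a description of letters. Only these exact spellings were searched, so a variant of a motif within the windows would be missed. A motif that was not found in these windows may also lie elsewhere.

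The members differed widely in level. Per kilobase of exon, and averaged over the 12 libraries, the highest was Me1, cytosolic malic enzyme, at 47.2 CPM per kb, above 94.8% of the genes tested. Fdft1 (squalene synthase) followed at 12.6, Pmvk (phosphomevalonate kinase) at 9.75 and Insig2 at 9.65 CPM per kb. The transcription factor genes Srebf1 and Srebf2 were at 4.80 and 1.37 CPM per kb. Fasn, fatty acid synthase, was at 1.19 CPM per kb. The lowest of the tested members were Lss (lanosterol synthase) at 0.28, Sqle (squalene epoxidase) at 0.19 and Elovl6 (the elongase of palmitate) at 0.10 CPM per kb. Counts behind single values ran from 1528 to 3321 per library for Me1, 91 to 492 for Pmvk, 64 to 181 for Mvk, 20 to 87 for Lss, 8 to 24 for Sqle and 5 to 17 for Elovl6. Sqle and Elovl6 therefore carry the largest counting error of the tested members. Exons of Fdft1 (774 bases, with Ctsb), Scap, Hmgcs1, Idi1, Lss, Cyp51, Srebf1, Elovl6, Me1 and Acss2 overlap antisense genes. The labels do not say whether strand was used in counting. On the same strand, exons of Fdps overlap Gm43738 by 1124 bases, those of Srebf1 overlap Mir6922 by 66 and those of Scd2 overlap Mir5114 by 61. Reads of these genes and their partners may thus be mixed, while Mvk, Pmvk, Mvd and Hsd17b7 have no such overlap on either strand.

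Running was first compared with rest in WT mice. Of the 32 members tested, 4 rose and 0 fell by edgeR's quasi-likelihood test at an adjusted p under 0.05, beside 8.24% of all 14486 genes in either direction. The count is near that background and is not a result about the list. The 4 were Mvk and Pmvk, the kinases that act in turn on mevalonate, and Lss and Hsd17b7, which act after squalene. All 4 are enzymes of the sterol route. None of the 5 regulators, the 6 fatty acid synthesis genes or the 5 tested genes of desaturation and elongation passed, with 0, 1 and 1 of them at an unadjusted p under 0.05, beside 21.3% of all genes. DESeq2 and limma-voom also called 4 members. The median log2 fold change over the 16 enzymes of the sterol route was 0.24, over the 11 tested fatty acid genes 0.20, and over all genes tested -0.01. Without 3 libraries (replicate 5 of exercised WT, 4 of exercised MKO and 3 of sedentary MKO) the fatty acid median was 0.02.

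Pmvk, which makes mevalonate diphosphate, changed most. In sedentary WT its level was 6.25, 6.74 and 8.03 CPM, and in exercised WT 30.1, 36.3 and 32.9 CPM. The groups lay far apart, with a 4.72-fold rise (log2 fold change 2.24 ± 0.31 SE, edgeR adjusted p 0.000863). Mvk, mevalonate kinase, stood at 6.12, 5.12 and 4.39 CPM at rest and at 11.3, 13.4 and 12.3 CPM after running. Every exercised WT library was above every sedentary one (2.37-fold, log2 fold change 1.24 ± 0.16 SE, edgeR adjusted p 0.000645). Mvk lies on chromosome 5 (114444269 to 114460591, plus strand) with its start 209 bases from that of Mmab, a cobalamin adenosyltransferase on the minus strand. Mmab, named after its values were seen, had a log2 fold change of 0.14 ± 0.11 SE (edgeR adjusted p 0.526).

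Lss closes squalene epoxide into lanosterol, the first sterol of the route. It stood at 1.92, 2.49 and 2.06 CPM at rest and at 3.96, 5.98 and 6.42 CPM after running. The ranges did not overlap (2.52-fold, log2 fold change 1.33 ± 0.27 SE, edgeR adjusted p 0.0103). An antisense gene, 4930483K19Rik, overlaps 381 exonic bases of Lss and had 0 counts in all 12 libraries. Hsd17b7, the 3-ketosteroid reductase of the C4 demethylation steps, stood at 7.42, 4.85 and 6.38 CPM at rest and at 9.84, 12.3 and 18.95 CPM after running. Its groups did not overlap either, though exercised replicate 5 stood above the other 2 exercised libraries (2.2-fold, log2 fold change 1.14 ± 0.22 SE, edgeR adjusted p 0.00747). With the replicate number as a block, Lss (edgeR adjusted p 0.150) and Hsd17b7 (edgeR adjusted p 0.0533) no longer passed. The labels do not say what the numbers stand for.

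**Figure D1:**
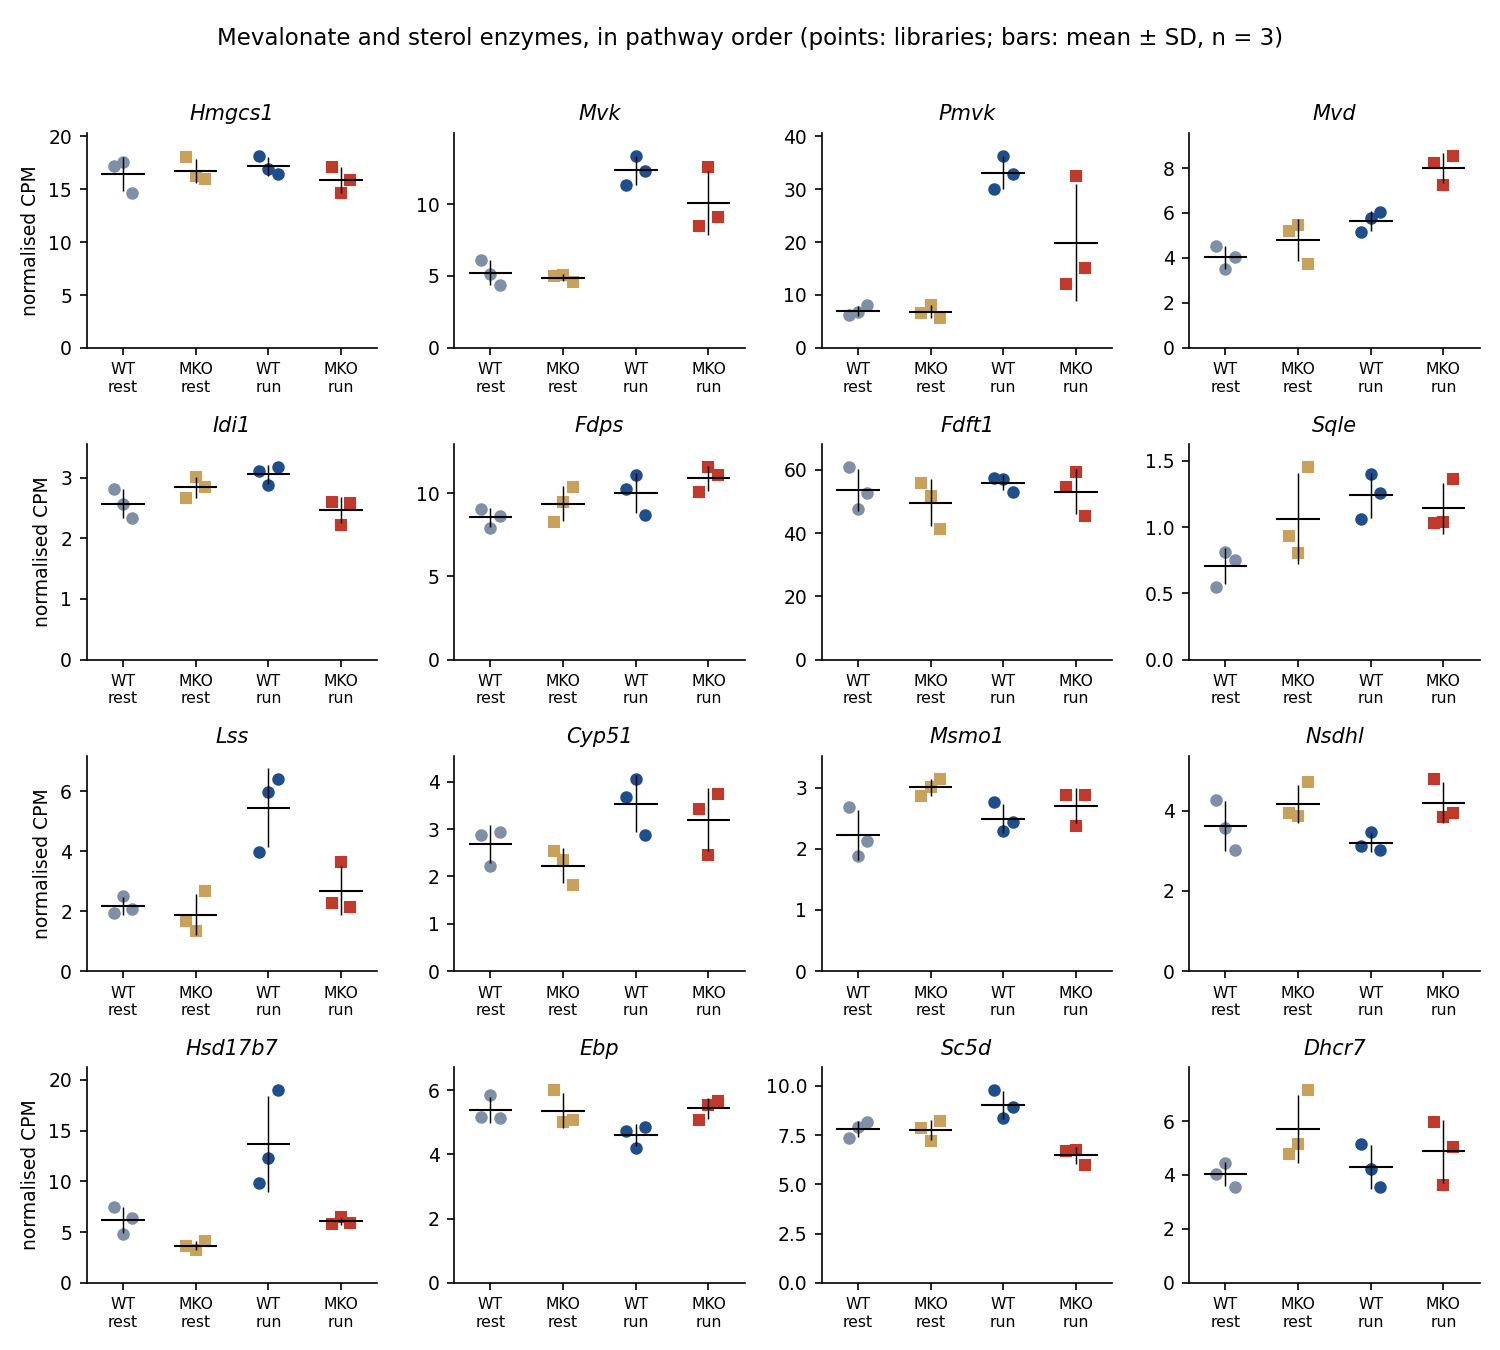
Normalised CPM (vertical axes, from 0) of the 16 enzymes of the sterol route in the 12 libraries, by group (MKO: cFeimin MKO; bars: mean and SD of 3 libraries). Pmvk and Mvk are higher in every exercised library than in any sedentary library of the same genotype, while Hmgcs1 stays between 14.61 and 18.2 CPM in all 12 libraries.

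The neighbouring steps of the route did not pass. Hmgcs1, which makes HMG-CoA and is a classic SREBP-2 target, stood at 17.2, 17.6 and 14.61 CPM at rest and at 18.2, 16.9 and 16.4 CPM after running, ranges that overlap (log2 fold change 0.06 ± 0.10 SE, edgeR adjusted p 0.788). Mvd, which decarboxylates mevalonate diphosphate, went from 4.54, 3.51 and 4.05 CPM to 5.17, 5.76 and 6.05 CPM. Its groups did not overlap, but the log2 fold change of 0.49 ± 0.16 SE missed the threshold (edgeR adjusted p 0.0868). Idi1, the isomerase of the isoprene units, and Fdps, farnesyl diphosphate synthase, had log2 fold changes of 0.25 and 0.23. Sqle, the oxygen-dependent step before Lss, was at 0.55, 0.81 and 0.75 CPM at rest and at 1.06, 1.4 and 1.25 CPM after running. These ranges were also separate, with 8 to 24 counts behind each value (log2 fold change 0.81 ± 0.28 SE, edgeR adjusted p 0.110). In all, 8 members were higher and 1 lower without overlap, beside 12.5% and 14.8% of all genes. The 1 lower was Ebp, the sterol isomerase, at 5.15, 5.87 and 5.14 CPM against 4.74, 4.21 and 4.87 CPM (edgeR adjusted p 0.357).

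The regulators gave no call. Srebf1 stood at 26.7, 27.0 and 26.1 CPM at rest and at 25.4, 31.8 and 23.9 CPM after running (log2 fold change 0.02 ± 0.19 SE, edgeR adjusted p 0.965). Srebf2 stood at 7.97, 9.17 and 9.67 against 8.42, 9.82 and 10.03 CPM (log2 fold change 0.08 ± 0.12 SE, edgeR adjusted p 0.783). Both factors overlapped between rest and running. Insig1, which retains SCAP and is itself induced by SREBP, was at 4.12, 4.18 and 5.01 CPM at rest. After running it was at 4.11, 5.61 and 9.88 CPM, with replicate 5 alone well above the rest (log2 fold change 0.56 ± 0.31 SE, edgeR adjusted p 0.339). Insig2 and Scap had log2 fold changes of 0.10 and -0.09.

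The same comparison was made in MKO mice. Of the 32 members, 3 rose and 0 fell, beside 4.05% of all genes in either direction, and all 3 were consecutive enzymes of the mevalonate route: Mvk, Pmvk and Mvd. Here too the count is over a short list chosen with earlier results known. The median log2 fold change was 0.10 over the 16 sterol enzymes, -0.05 over the 11 fatty acid genes, and 0.00 over all genes. These medians were not stable in sign: the sterol median was -0.06 with scaling by total counts alone and 0.21 without sedentary MKO replicate 3, and the fatty acid median -0.18 with that scaling and 0.22 without sedentary MKO replicate 1. Without overlap, 4 members were higher and 2 lower, beside 10.1% and 11.6% of all genes.

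Mvk was at 4.997, 5.08 and 4.60 CPM in sedentary MKO and at 8.49, 12.6 and 9.13 CPM in exercised MKO. Every exercised library was higher (2.06-fold, log2 fold change 1.04 ± 0.16 SE, edgeR adjusted p 0.00434). Mvd was at 5.20, 5.48 and 3.75 CPM at rest and at 8.22, 7.26 and 8.55 CPM after running, again without overlap (1.67-fold, log2 fold change 0.74 ± 0.15 SE, edgeR adjusted p 0.0169). The call for Mvd was lost without exercised MKO replicate 1 (edgeR adjusted p 0.0515) or replicate 4 (edgeR adjusted p 0.0647), with only the MKO groups in the fit (edgeR adjusted p 0.0699) and with the replicate number as a block (edgeR adjusted p 0.0548).

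Pmvk was at 6.60, 8.15 and 5.69 CPM in sedentary MKO and at 12.1, 32.5 and 15.02 CPM in exercised MKO. All 3 exercised libraries were above all sedentary ones, but replicate 2 was at the level of exercised WT and replicates 1 and 4 were well below it. The rise was 2.92-fold (log2 fold change 1.54 ± 0.31 SE, edgeR adjusted p 0.0153). Without replicate 2 the log2 fold change was 0.99 and still passed (edgeR adjusted p 0.0151), whereas the call was lost without sedentary MKO replicate 1 (edgeR adjusted p 0.0585) or 3 (edgeR adjusted p 0.0621) and with only the MKO groups in the fit (edgeR adjusted p 0.0922). With replicate 3 of sedentary MKO, 4 of exercised MKO and 5 of exercised WT left out together, only Mvk of the 3 kept its call. Some of the marker lists were split in the same way. The summed level of 8 macrophage markers was 80.6 and 83.2 CPM in replicates 1 and 4 and 41.0 CPM in replicate 2, and that of 5 fibroblast markers was 343 and 350 CPM against 226 CPM. The 9 Schwann cell markers summed to 308 and 258 CPM against 63.9 CPM. Other lists were not split in this way. Replicate 2 lay between replicates 1 and 4 in red blood cell markers (723 against 836 and 513 CPM) and in slow-fibre markers (1283 against 1050 and 1362 CPM). In exercised MKO the adipocyte, endothelial and fast-fibre sums were highest in replicate 2. In exercised WT the Schwann cell sum was 224, 230 and 86.7 CPM, where Pmvk was at 30.1, 36.3 and 32.9 CPM. The part of any of these cell types in the values of Pmvk was not tested.

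The enzymes after squalene gave no call in MKO. Hsd17b7 was at 3.60, 3.28 and 4.11 CPM at rest and at 5.82, 6.45 and 5.89 CPM after running, separate ranges with a log2 fold change of 0.72 ± 0.24 SE (edgeR adjusted p 0.145). Lss was at 1.67, 1.34 and 2.66 CPM at rest and at 2.26, 3.63 and 2.16 CPM after running, ranges that overlap (log2 fold change 0.49 ± 0.30 SE, edgeR adjusted p 0.504). Cyp51, the sterol 14-demethylase, had a log2 fold change of 0.53 ± 0.21 SE (edgeR adjusted p 0.237). Hmgcs1 was at 18.1, 16.2 and 16.0 CPM against 17.1, 14.7 and 15.9 CPM (log2 fold change -0.08 ± 0.10 SE, edgeR adjusted p 0.808). Sqle overlapped as well, with 0.93, 0.80 and 1.45 CPM against 1.03, 1.04 and 1.37 CPM. Of the regulators, Srebf1 had a log2 fold change of -0.17 ± 0.19 SE, Srebf2 of 0.08 ± 0.11 SE and Insig1 of 0.17 ± 0.31 SE, none of which passed.

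**Figure D2:**
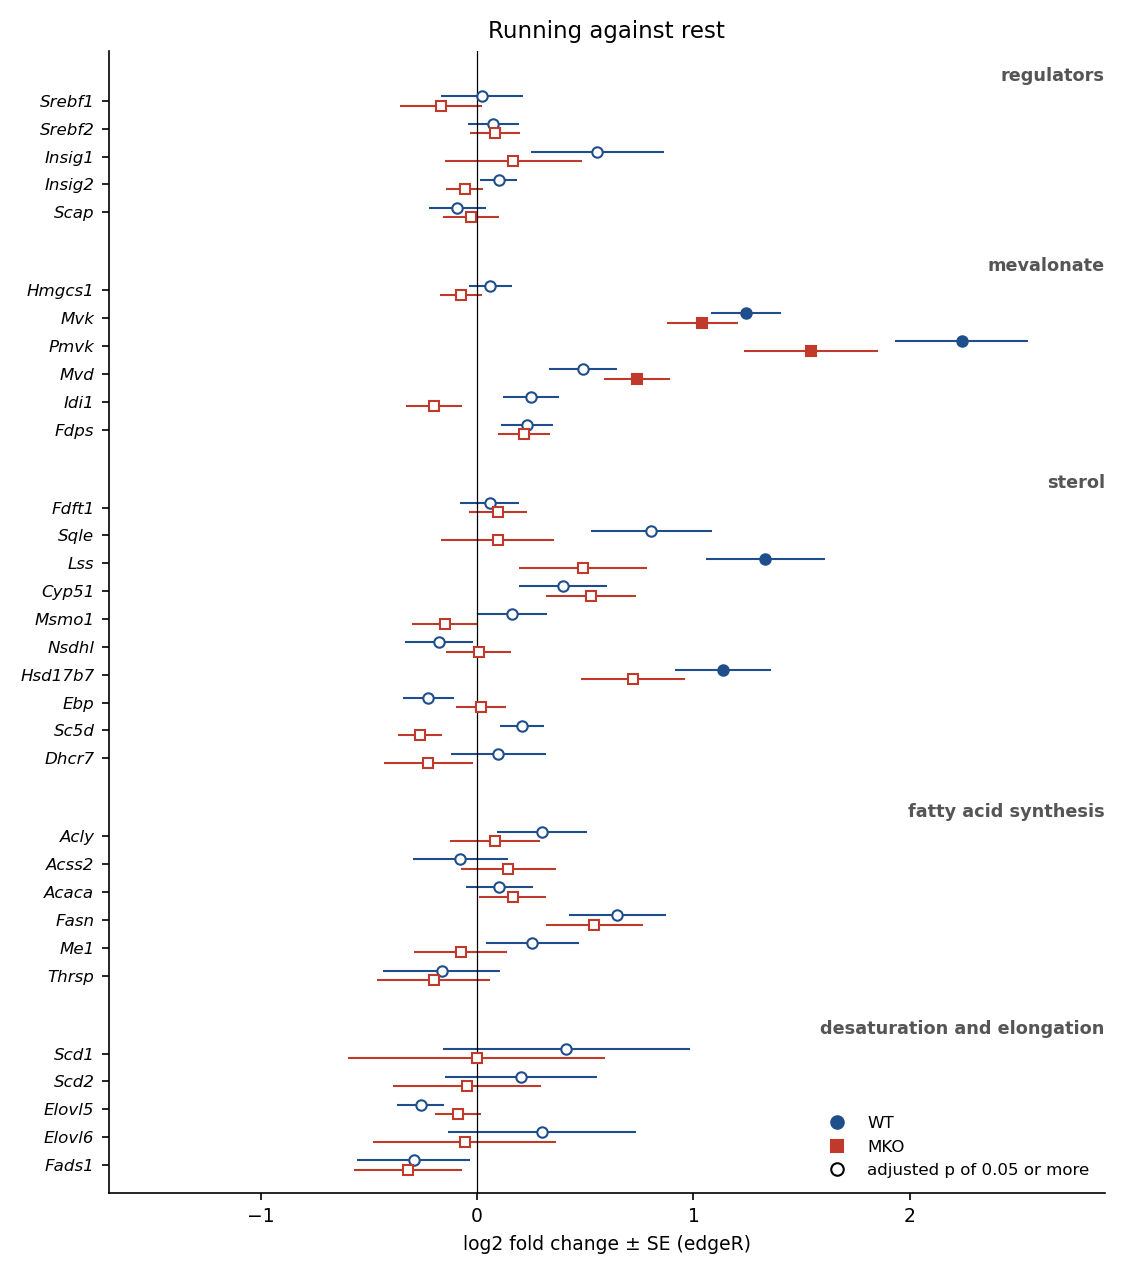
Log2 fold change of running against rest with its standard error (edgeR) for the 32 tested members in WT and in MKO, ordered by role. Filled points passed an adjusted p of 0.05: Mvk, Pmvk, Lss and Hsd17b7 in WT, and Mvk, Pmvk and Mvd in MKO.

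Averaging the running effect over the genotypes, a contrast added after the data were seen, used 6 exercised against 6 sedentary libraries. Of the 32 members 6 rose and 0 fell, beside 13.6% of all genes. They were Pmvk (log2 fold change 1.89), Mvk (1.14), Hsd17b7 (0.93), Lss (0.91), Mvd (0.61) and Fasn. Fasn was the only fatty acid gene among them, with 0.59 ± 0.16 SE (edgeR adjusted p 0.0266). Its call was lost in 8 of the 12 fits that left out 1 library and under 2 other settings (edgeR adjusted p up to 0.073). That of Lss was lost with the replicate number as a block (edgeR adjusted p 0.0944). Cyp51 came closest among the rest, at 0.46 ± 0.14 SE (edgeR adjusted p 0.0561).

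Markers of fibroblasts, macrophages and red blood cells were lower after running, with negative log2 fold changes for 5 of 5, 8 of 8 and 5 of 5 in WT and for 5 of 5, 7 of 8 and 5 of 5 in MKO. The 5 fibroblast markers summed to 385 to 482 CPM at rest and 218 to 247 CPM after running in WT, and to 508 to 536 and 226 to 350 CPM in MKO. The 8 macrophage markers summed to 52.9 to 60.6 and 29.3 to 36.9 CPM in WT, and to 70.2 to 99.8 and 41.0 to 83.2 CPM in MKO. Of the single markers, Pdgfra, Dcn and Cd163 fell in both genotypes and C1qc in WT. The 5 red blood cell markers summed to 419 to 1683 CPM at rest and 447 to 573 CPM after running in WT, and to 1357 to 2278 and 513 to 836 CPM in MKO, and none passed in either genotype. Cldn5, an endothelial tight junction gene named after its values were seen, rose in both genotypes (log2 fold changes 1.61 and 0.95, edgeR adjusted p 0.000608 and 0.0294), while the other 4 endothelial markers had negative values. All of the listed markers had counts. Their part in the changes of the members was not tested.

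The mean log2 CPM of the 16 sterol enzymes lay between 2.30 and 2.41 in the 6 sedentary libraries, between 2.63 and 2.68 in exercised MKO, and between 2.80 and 2.87 in exercised WT. This score is a description and was not tested. It is a mean, and the 4 enzymes called in WT had log2 fold changes of 1.14 to 2.24, against a median of 0.24 over the 16. In MKO the median was 0.10. The score is thus not a shift shared by all 16 enzymes. Whether the running responses of the genotypes differed was tested gene by gene. Of the 32 members 0 passed by edgeR, and 1 had an unadjusted p under 0.05, beside 3.69% of all genes. DESeq2 and limma-voom also called 0 members. Across all genes edgeR called 0%. All adjusted p-values of members were at least 0.983. The difference in log2 fold change, MKO minus WT, was -0.84 ± 0.41 SE for Lss, -0.69 ± 0.43 SE for Pmvk, -0.71 ± 0.38 SE for Sqle and -0.42 ± 0.33 SE for Hsd17b7. It was -0.20 ± 0.23 SE for Mvk and 0.25 ± 0.22 SE for Mvd. The value for Pmvk stayed negative, between -1.25 and -0.43, under the 21 alternatives. None passed, so these data show no difference between the running responses of the genotypes, nor that the responses are equal. Mvk and Pmvk were called higher with running in each genotype.

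Sc5d and Idi1 pointed in opposite directions in the genotypes. Sc5d, the lathosterol desaturase, was at 7.35, 7.89 and 8.16 CPM in sedentary WT and at 9.77, 8.35 and 8.92 CPM in exercised WT. In MKO it was at 7.86, 7.22 and 8.23 CPM at rest and at 6.71, 6.74 and 5.97 CPM after running. The WT ranges separated upwards and the MKO ranges downwards, and the difference of -0.47 ± 0.15 SE had an unadjusted p of 0.00722 (edgeR adjusted p 0.983). Idi1 was at 2.82, 2.56 and 2.33 CPM against 3.11, 2.88 and 3.17 CPM in WT, and at 2.66, 3.01 and 2.84 CPM against 2.60, 2.22 and 2.59 CPM in MKO. Its ranges separated the same way, but very narrowly. The nearest libraries were at 2.82 and 2.88 CPM in WT and at 2.66 and 2.60 CPM in MKO, with 30 to 47 counts per library. The difference was -0.45 ± 0.18 SE, with an edgeR unadjusted p of 0.0922 (edgeR adjusted p 0.983). This pattern was shown by 0.104% of all genes tested, and the opposite pattern by 0.117%. Among the regulators the differences for Insig1 (-0.39 ± 0.44 SE), Insig2 (-0.16 ± 0.12 SE), Srebf1 (-0.19 ± 0.27 SE) and Srebf2 (0.01 ± 0.16 SE) did not pass, nor did that for Hmgcs1 (-0.14 ± 0.14 SE). Among the fatty acid genes the same held for Me1 (-0.33 ± 0.30 SE), Acly (-0.22 ± 0.29 SE), Fasn (-0.10 ± 0.32 SE), Scd1 (-0.41 ± 0.82 SE), Elovl5 (0.17 ± 0.15 SE) and Elovl6 (-0.36 ± 0.61 SE).

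MKO and WT were then compared at rest. Of the 32 members 0 passed by edgeR, DESeq2 or limma-voom, beside 0.0069% of all genes by edgeR, and 3 members had an unadjusted p under 0.05, beside 3.76% of all genes. The median log2 fold change was 0.01 over the 32 members and 0.00 over all genes. The 3 were Hsd17b7, Msmo1 and Dhcr7. Hsd17b7 was at 7.42, 4.85 and 6.38 CPM in WT and at 3.60, 3.28 and 4.11 CPM in MKO, without overlap (log2 fold change -0.76 ± 0.24 SE, unadjusted p 0.00844). Msmo1, the sterol C4-methyl oxidase, and Dhcr7, the 7-dehydrocholesterol reductase, were on the other side, at 0.43 ± 0.16 SE and 0.50 ± 0.21 SE. Msmo1 stood at 2.68, 1.89 and 2.13 CPM in WT and at 2.86, 3.01 and 3.15 CPM in MKO, and Dhcr7 at 4.06, 4.45 and 3.57 CPM against 4.80, 5.15 and 7.14 CPM. All adjusted p-values of members were 1. Without overlap, 4 members were higher and 1 lower, beside 5.43% and 4.91% of all genes.

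The other named members at rest showed small or scattered differences. Srebf2 was at 7.97 to 9.67 CPM in WT and 9.69 to 10.7 CPM in MKO, a narrow separation with a log2 fold change of 0.18 ± 0.12 SE. Srebf1 (0.12 ± 0.19 SE), Insig1 (-0.07 ± 0.32 SE), Hmgcs1 (0.02 ± 0.10 SE), Mvd (0.25 ± 0.16 SE), Fdps (0.14 ± 0.12 SE) and Sqle (0.60 ± 0.28 SE) overlapped between genotypes. So did Fasn (-0.01 ± 0.23 SE), Thrsp (0.37 ± 0.26 SE), Acss2 (-0.16 ± 0.22 SE), Fads1 (0.24 ± 0.25 SE) and Scd1 (-0.38 ± 0.58 SE). Scd2 was higher in all 3 MKO libraries (0.46 ± 0.35 SE).

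After running, 0 of the 32 members passed between MKO and WT by edgeR, beside 0.0345% of all genes, and 6 had an unadjusted p under 0.05, beside 16% of all genes. DESeq2 called 1 member, Hsd17b7, and limma-voom 0. The median was -0.08 over the members, -0.11 over the 16 sterol enzymes and 0.01 over all genes. Without overlap, 4 members were higher and 6 lower, beside 11.1% and 12% of all genes, so neither share stands out.

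Hsd17b7 was again lower in MKO, at 5.82, 6.45 and 5.89 CPM against 9.84, 12.3 and 18.95 CPM, a level close to that of resting WT. The log2 fold change was -1.18 ± 0.22 SE, with an adjusted p of 0.151 by edgeR and 0.00581 by DESeq2. Averaged over both states, a contrast added after the data were seen, it was -0.97 ± 0.16 SE (edgeR adjusted p 0.107), and 0 of 32 members passed, beside 0.0138% of all genes, with 8 members at an unadjusted p under 0.05, beside 15.5% of all genes. In that average DESeq2 called 1 member, again Hsd17b7, and limma-voom 0. Hsd17b7 was lower in MKO in both states, but the 2 comparisons do not amount to a call by edgeR.

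Lss was at 2.26, 3.63 and 2.16 CPM in exercised MKO against 3.96, 5.98 and 6.42 CPM in exercised WT, without overlap (log2 fold change -1.02 ± 0.27 SE, edgeR adjusted p 0.203). Sc5d was lower without overlap as well (-0.48 ± 0.10 SE, edgeR adjusted p 0.203). Mvd lay on the other side, at 8.22, 7.26 and 8.55 CPM against 5.17, 5.76 and 6.05 CPM (0.50 ± 0.15 SE, edgeR adjusted p 0.206), as did Nsdhl, the sterol C4-decarboxylase (0.39 ± 0.16 SE, edgeR adjusted p 0.263). These differences did not pass. Pmvk overlapped between the genotypes through exercised MKO replicate 2, at 32.5 CPM (log2 fold change -0.74 ± 0.28 SE, edgeR adjusted p 0.253). Without that library its log2 fold change was -1.29 and passed (edgeR adjusted p 0.00916).

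Of the regulators after running, Insig2 (-0.16 ± 0.08 SE) was lower without overlap, and Srebf2 (0.19 ± 0.12 SE), Srebf1 (-0.07 ± 0.19 SE) and Insig1 (-0.46 ± 0.31 SE) overlapped. Hmgcs1 (-0.11 ± 0.10 SE) and Sqle (-0.11 ± 0.26 SE) overlapped too. Of the fatty acid genes, Me1 was lower in all 3 MKO libraries, at 179, 187 and 110 CPM against 216, 233 and 204 CPM (-0.46 ± 0.22 SE, edgeR adjusted p 0.324). Elovl5, an elongase of polyunsaturated fatty acids, was higher in all 3 (0.22 ± 0.11 SE, edgeR adjusted p 0.354). Thrsp (0.33 ± 0.27 SE), Fasn (-0.11 ± 0.22 SE) and Scd1 (-0.79 ± 0.58 SE) overlapped. Macrophage markers were higher in MKO in both states, with a positive log2 fold change for 8 of 8 and medians of 0.58 at rest and 1.09 after running. The same held for 5 of 5 fibroblast markers (0.31 and 0.63), 5 of 5 red blood cell markers (0.93 and 0.43) and 7 of 7 slow-fibre markers (0.57 and 0.34). None of these markers passed. The fibroblast sums did not overlap between the genotypes at rest, and the macrophage sums did not overlap in either state. At rest the macrophage sums were at most 60.6 CPM in WT and at least 70.2 CPM in MKO, and after running 36.9 and 41.0 CPM. The red blood cell and slow-fibre sums overlapped in both states. At rest the slow-fibre sums ran from 95.8 to 1662 CPM in MKO and from 533 to 974 CPM in WT. The part of these markers in the values of the members was not tested.

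**Figure D3:**
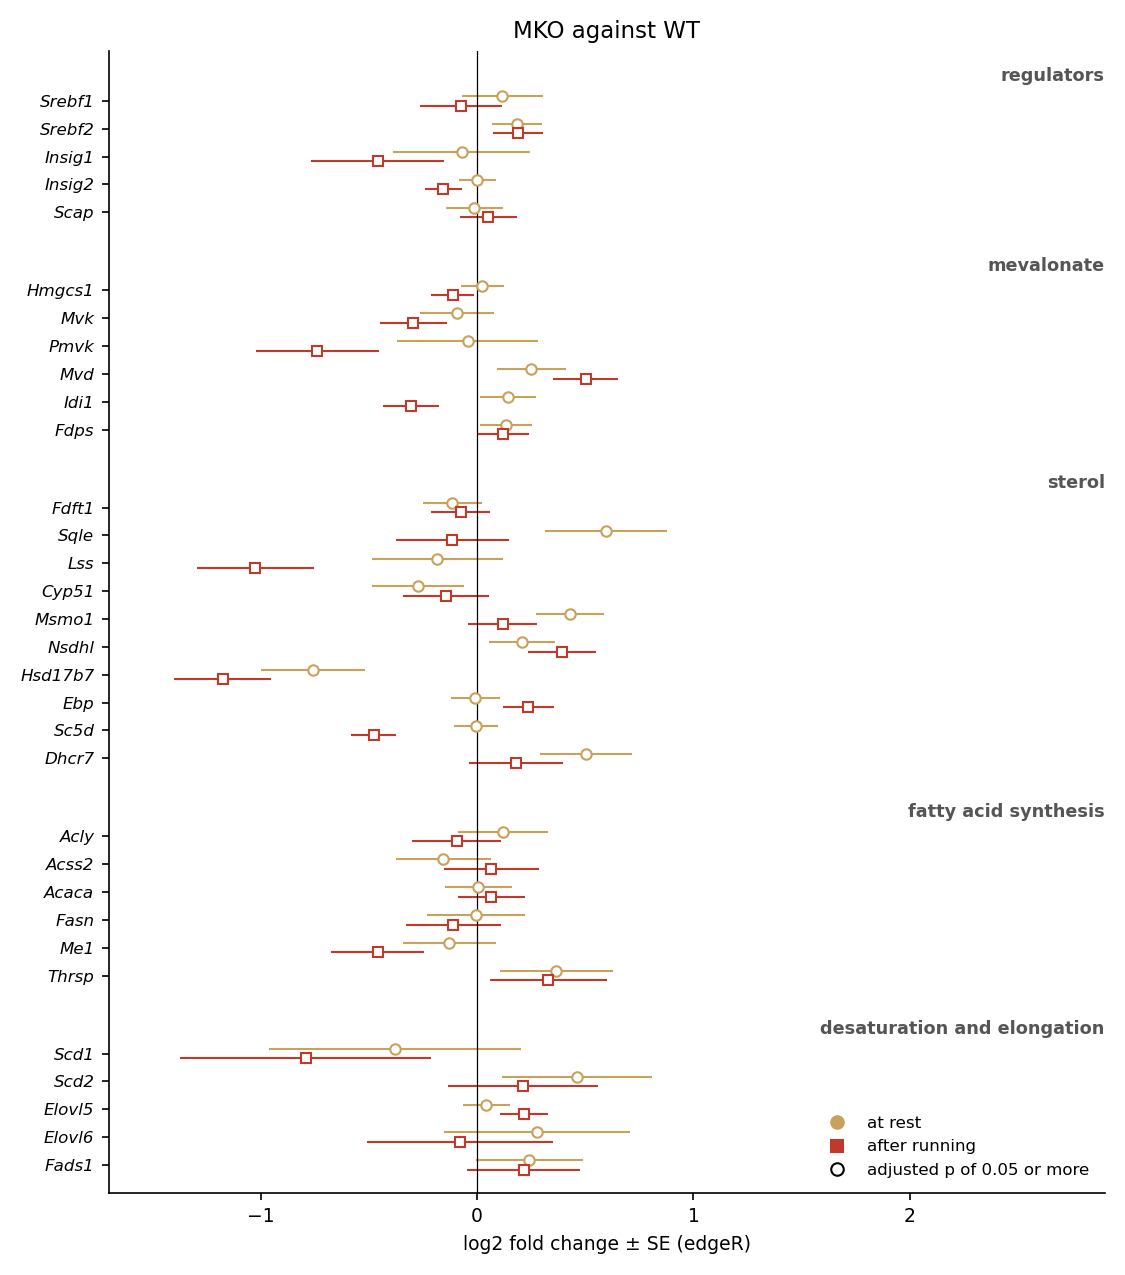
Log2 fold change of MKO against WT with its standard error (edgeR) for the 32 tested members, at rest and after running. All points are open, since none passed; Hsd17b7 has the lowest value in both states (-0.76 and -1.18).

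The fatty acid branch held 0 calls by edgeR in the 4 comparisons of groups, with 2 of 11 genes at an unadjusted p under 0.05 with running in WT and 1 in MKO, beside 21.3% and 15.1% of all genes. Fasn, which builds palmitate, was at 13.5, 7.35 and 10.3 CPM in sedentary WT and at 13.4, 18.8 and 16.5 CPM in exercised WT (log2 fold change 0.65 ± 0.22 SE, edgeR adjusted p 0.107). In MKO it was at 10.2, 9.76 and 11.01 CPM against 16.8, 17.6 and 10.8 CPM (0.54 ± 0.22 SE, edgeR adjusted p 0.265). In each genotype 1 pair of libraries kept the ranges from separating. Without sedentary WT replicate 1 the WT value passed (0.88, edgeR adjusted p 0.0456).

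The enzymes that supply and carboxylate acetyl-CoA gave no call with running. Acly, ATP citrate lyase, had log2 fold changes of 0.30 ± 0.21 SE in WT and 0.08 ± 0.21 SE in MKO. Acaca, acetyl-CoA carboxylase 1, had 0.10 ± 0.16 SE and 0.16 ± 0.15 SE, and Acss2, the cytosolic acetyl-CoA synthetase, -0.08 ± 0.22 SE and 0.15 ± 0.22 SE. Thrsp, a lipogenic regulator, had -0.16 ± 0.27 SE and -0.20 ± 0.26 SE. Elovl5 had -0.26 ± 0.11 SE in WT (edgeR adjusted p 0.193) and -0.09 ± 0.11 SE in MKO, and Fads1, the delta-5 desaturase, -0.29 ± 0.26 SE and -0.32 ± 0.25 SE. None of these passed, and all overlapped between rest and running in both genotypes.

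**Figure D4:**
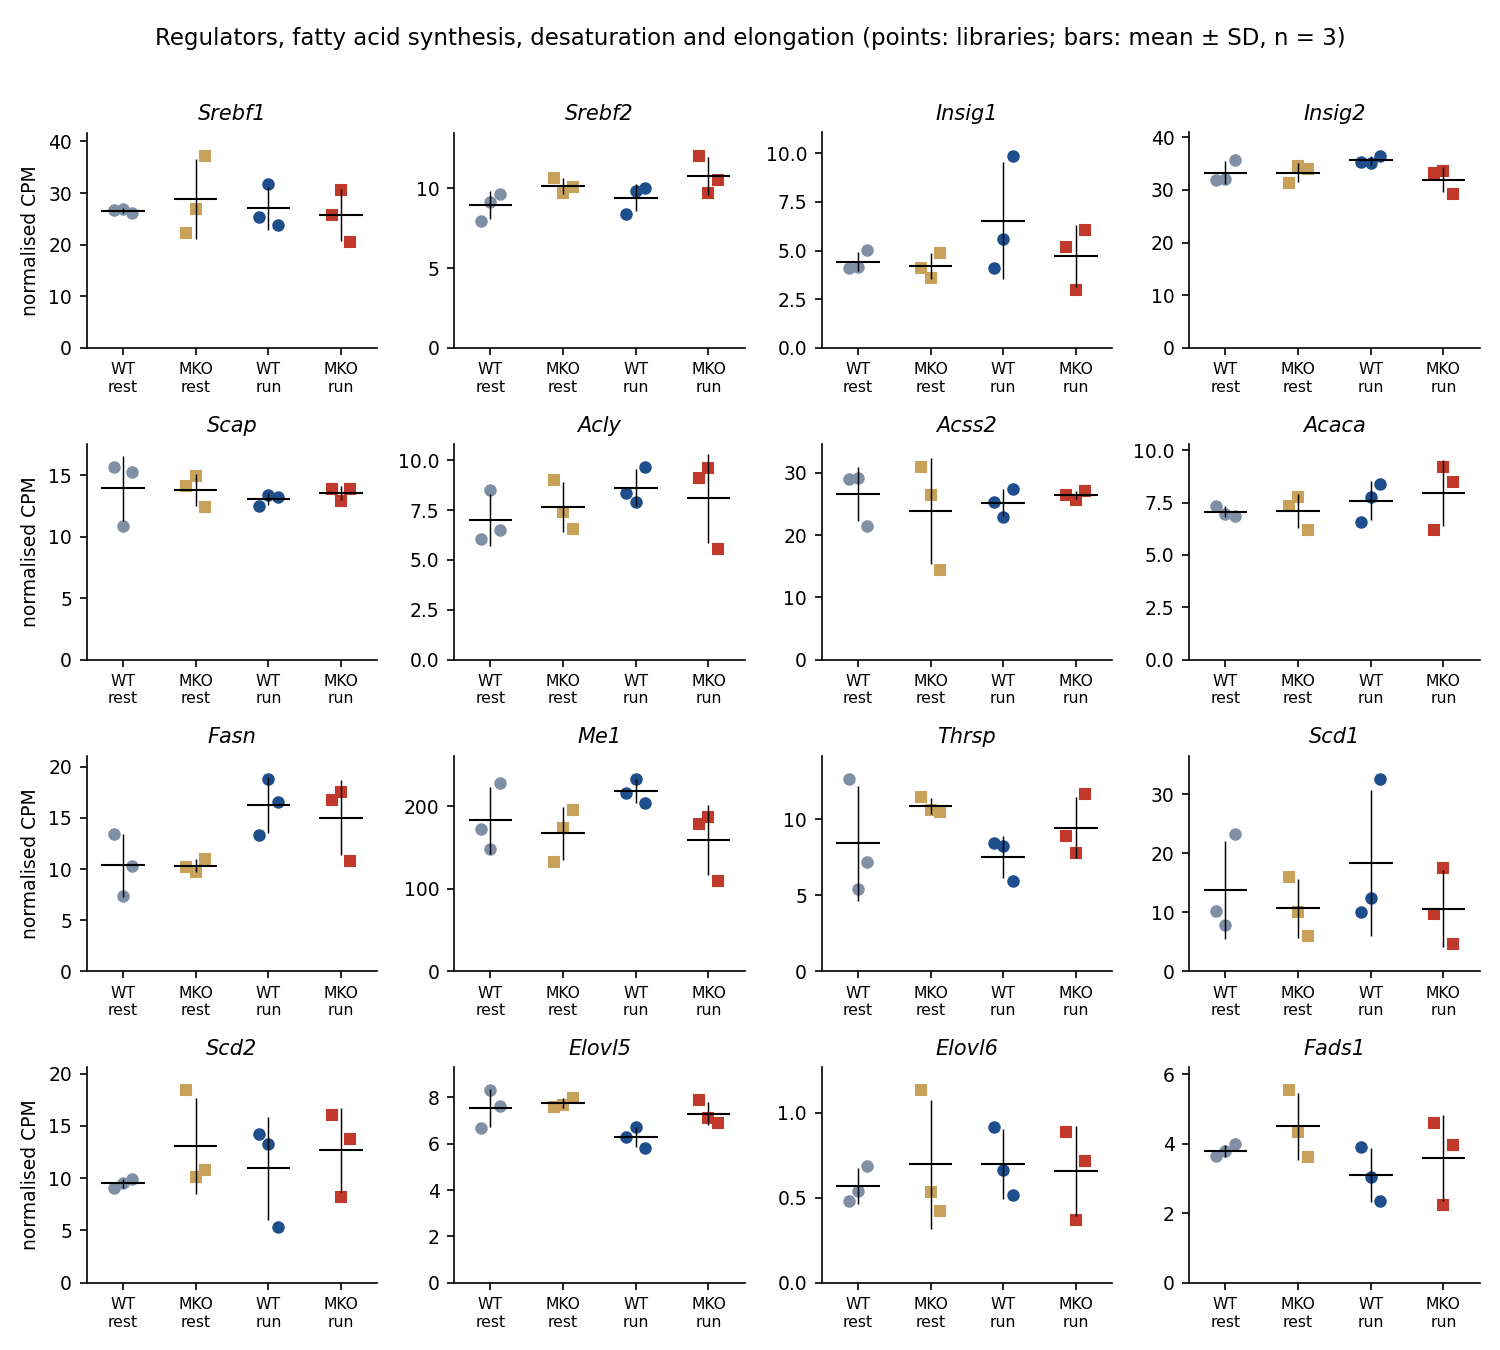
Normalised CPM (vertical axes, from 0) of the 5 regulators and the 11 tested genes of fatty acid synthesis, desaturation and elongation in the 12 libraries, by group (bars: mean and SD of 3 libraries). Rest and running overlap for all 16 genes in both genotypes.

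Scd1 and Scd2, stearoyl-CoA desaturases that make monounsaturated fatty acids, varied more between libraries than between groups. Scd1 was at 10.2, 7.75 and 23.3 CPM in sedentary WT, 15.9, 10.03 and 5.93 CPM in sedentary MKO, 10.1, 12.4 and 32.6 CPM in exercised WT, and 9.66, 17.5 and 4.67 CPM in exercised MKO. Its log2 fold change with running was 0.41 ± 0.57 SE in WT and -0.00 ± 0.59 SE in MKO, and in WT it was -0.29 without exercised WT replicate 5. The 4 libraries with the most Scd1 (15.9 to 32.6 CPM) were 1 of each group, and they were also the 4 with the most Adipoq, the adipocyte hormone adiponectin. Adipoq was at 2.07 to 3.43 CPM in those 4 and at 0.14 to 1.57 CPM in the other 8. The 4 libraries with the most Cidec, a lipid droplet protein of adipocytes, were the same. The whole list of 9 adipocyte markers summed to 93.8 to 206 CPM, nearly all of it Fabp4, which endothelium also expresses. On that sum the 4 libraries did not rank highest, nor did they on Cfd, Retn or Pck1 of the list. Cfd was at 10.6 CPM in sedentary MKO replicate 3 and at 7.74 CPM in exercised WT replicate 5. Retn had no count in exercised MKO replicate 2. Pck1 was at 1.70 CPM in exercised WT replicate 4 and at 1.65 CPM in sedentary WT replicate 4. Lep had no count in 8 libraries and Plin1 in 6.

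Scd2 was set beside another set of markers. It was at 9.07, 9.57 and 9.88 CPM in sedentary WT, 18.4, 10.2 and 10.8 CPM in sedentary MKO, 14.2, 13.3 and 5.31 CPM in exercised WT, and 16.0, 8.22 and 13.7 CPM in exercised MKO. The 5 libraries with the most Scd2 (13.3 to 18.4 CPM) were the 5 with the highest sum of 9 Schwann cell markers. That sum was 224 to 403 CPM in them, against 63.9 to 179 CPM in the other 7, where Scd2 was 5.31 to 10.8 CPM. Within the other 7 the order was not shared. The sum was 179 CPM in sedentary WT replicate 4, with Scd2 at 9.88 CPM, and 85.3 CPM in sedentary MKO replicate 3, with Scd2 at 10.8 CPM. Of the 5 libraries highest in Elovl6, 4 were among the 5 highest in Scd2, and of those highest in Fads1, 3 were. These marker sets were set beside the desaturases after the values were seen, the libraries share their scaling, and the part of either cell type in the group values was not tested.

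**Figure D5:**
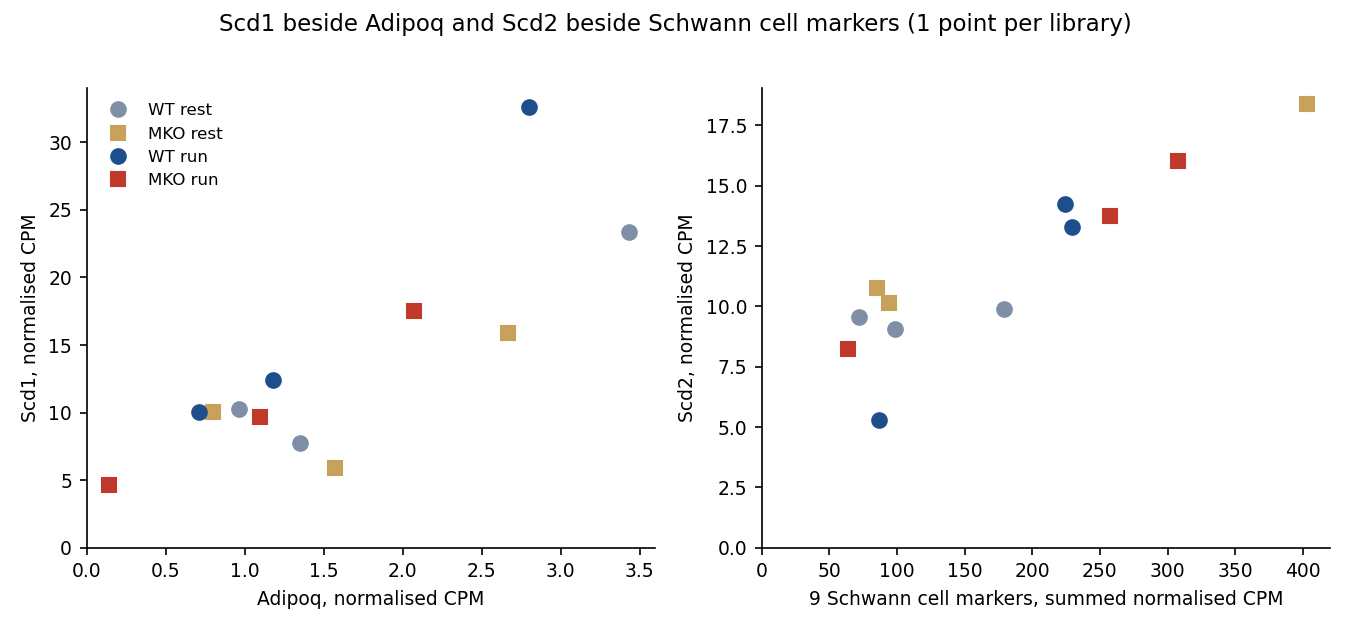
Scd1 against Adipoq and Scd2 against the summed Schwann cell markers, in normalised CPM, with 1 point per library coloured by group. The 4 libraries highest in Scd1 are the 4 highest in Adipoq, and the 5 highest in Scd2 the 5 highest in Schwann cell markers.

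Other genes of the same pathways were read from lists that hold no member. Over all genes, 8.24% were called with running in WT and 4.05% in MKO, in either direction. An unadjusted p under 0.05 was held by 21.3% and 15.1%. The lists are short, so their counts are not results about the lists. Of 8 tested further sterol genes (among them Acat2 and Ggps1), 0 passed with running in WT or in MKO by edgeR, and 1 had an unadjusted p under 0.05 in each. That 1 was Stard4, a sterol carrier named after its values were seen, lower without overlap in both genotypes (log2 fold changes -0.92 and -1.03, edgeR adjusted p 0.0645 and 0.0643). In the average over the genotypes it fell (-0.97 ± 0.19 SE, edgeR adjusted p 0.00543). Of 9 genes that process SREBP or degrade sterol-regulated proteins, 1 rose and 2 fell in WT and 1 fell in MKO. Mbtps1, the site-1 protease that cleaves SREBP, fell from 22.3 to 23.3 CPM at rest to 16.8 to 17.5 CPM in WT (log2 fold change -0.43 ± 0.08 SE, edgeR adjusted p 0.00532). In MKO it fell from 21.05 to 23.7 CPM to 15.2 to 17.2 CPM (-0.46 ± 0.08 SE, edgeR adjusted p 0.00648). Rnf139, a ubiquitin ligase of the endoplasmic reticulum, fell in WT (-0.44 ± 0.12 SE, edgeR adjusted p 0.0463). Fbxw7, the ligase subunit that marks nuclear SREBP for degradation, rose in WT (0.56 ± 0.12 SE, edgeR adjusted p 0.013). In MKO neither passed (edgeR adjusted p 0.0978 and 0.532).

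Of 14 tested further genes of fatty acid synthesis and elongation, 2 rose in WT and 1 in MKO, beside 8.24% and 4.05% of all genes. Aacs, acetoacetyl-CoA synthetase, which turns the ketone body acetoacetate into cytosolic acetoacetyl-CoA for lipid and sterol synthesis, was at 1.44, 2.43 and 1.65 CPM in sedentary WT and at 8.64, 8.05 and 7.67 CPM in exercised WT. The groups lay far apart (log2 fold change 2.14 ± 0.26 SE, edgeR adjusted p 0.000374). In MKO Aacs was at 2.27, 1.27 and 2.12 CPM against 7.33, 5.11 and 9.20 CPM (1.93 ± 0.26 SE, edgeR adjusted p 0.00168). Hacd3, a dehydratase of fatty acid elongation, rose in WT (0.61 ± 0.12 SE, edgeR adjusted p 0.00833). Of the 7 genes of cytosolic NADPH supply 0 passed by edgeR. With running, 2 in WT and 1 in MKO had an unadjusted p under 0.05, beside 21.3% and 15.1% of all genes.

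Of 8 LXR receptors and targets 1 fell in each genotype, beside 8.24% of all genes called in WT and 4.05% in MKO. Mylip, the ligase that degrades lipoprotein receptors, was at 12.7, 17.9 and 14.7 CPM in sedentary WT and at 4.53, 3.62 and 3.17 CPM in exercised WT (log2 fold change -2.0 ± 0.18 SE, edgeR adjusted p 7.21e-05). In MKO it was at 11.9, 13.4 and 14.2 CPM against 5.0, 4.22 and 3.23 CPM (-1.66 ± 0.18 SE, edgeR adjusted p 0.000554). Of 9 tested glycerolipid genes 1 rose in each genotype, Gpat3, a glycerol-3-phosphate acyltransferase (1.58 ± 0.25 SE in WT and 1.27 ± 0.25 SE in MKO, edgeR adjusted p 0.00224 and 0.0148). Of the 55 tested genes in these 6 lists 0 passed between MKO and WT in either state by edgeR. At an unadjusted p under 0.05 there were 0 at rest and 8 after running, beside 3.76% and 16% of all genes. The lists were not run with DESeq2 or limma-voom.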

How the data were processed

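RNA sequencing libraries of gastrocnemius were analysed in 4 groups of 3 (sedentary WT 1, 3, 4; sedentary MKO 1, 2, 3; exercised WT 3, 4, 5; exercised MKO 1, 2, 4). Libraries were made by BGI and sequenced on DNBSEQ, per the labels' protocols, which speak of 18 libraries; 12 were analysed here. The values are raw counts per Ensembl gene as deposited. Per the submitters' processing notes the builds were GRCm38.p6 and mm10, and the tools included HISAT2 2.2.1 (a read aligner) and StringTie 2.1.4 (a transcript assembler). The counting tool and its treatment of strand and of reads with several matches are not stated there. One misspelt column was matched to replicate 4 of exercised MKO, since no other column fits that library. Symbols came from GENCODE release M21 (GRCm38.p6). The 884 identifiers without one held 0.0875% of the counts and stayed in the tests.

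Counts were tested with edgeR 4.0.16 in R 4.3.3: filterByExpr (minimum count 10, total 15), TMM factors (0.928 to 1.15), 1 quasi-likelihood fit of all 12 libraries (a mean for each group, 8 residual degrees of freedom), and Benjamini-Hochberg adjustment over all 14486 genes, with a threshold of 0.05. Each SE is the log2 fold change over the root of its F value. Non-overlap means that all 3 libraries of a group lay above or below all 3 of the other. A score averages log2 CPM over genes, with a prior count of 2. The test was checked on simulated counts. Alternatives were DESeq2 1.42.0, limma-voom (limma 3.58.1), 2 scalings, 3 filters, only the groups compared, the replicate number as a block, and leaving out libraries. The members, roles, lists and motifs were chosen with earlier results of these data known. Genes were named by rule: members that passed, the 2 smallest p per role in each comparison, 7 genes throughout, and up to 3 genes per pathway list that passed. One gene of the further sterol list is not reported here and was left out of its counts. Scd2, Adipoq, Cidec, Mmab, Cldn5 and Stard4 were set out after their values were seen. Replicates were compared, and no 2 were duplicates. Counting error is largest for members under 30 counts. Plots used matplotlib 3.10.9 (Python 3.11.15).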

Additional observations from a re-analysis of the deposited data

Results flagged for a closer look

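For 2 members every exercised WT library lay above the sedentary WT range, while every exercised MKO library lay below the sedentary MKO range. This pattern was shown by 0.104% of all genes tested. The search covered the opposite pattern too, which 0.117% of all genes showed. It also covered members whose genotypes separated in opposite directions at rest and after running, and members whose difference passed. No member met either rule, and the share of all genes with opposite genotype separations was not counted. The difference between the running effects, MKO minus WT, was -0.47 (log2) for Sc5d, the lathosterol desaturase, and -0.45 for Idi1, the isopentenyl diphosphate isomerase. Neither difference passed edgeR's test over all genes (adjusted p 0.983 for both). For Idi1 the nearest libraries were at 2.82 and 2.88 CPM in WT and at 2.66 and 2.60 CPM in MKO, with 30 to 47 counts per library. Both kept this sign under all 21 alternatives, Sc5d between -0.53 and -0.38 and Idi1 between -0.52 and -0.39.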

How the results depend on the processing

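The 4 members called with running in WT numbered 4 under every alternative except 2: with the replicate block the number was 2 (Lss and Hsd17b7 lost), and with 1 library left out it ranged from 4 to 5. In MKO 3 members were called; the number was 1 with 3 libraries left out together (replicate 3 of sedentary MKO, 4 of exercised MKO and 5 of exercised WT), 2 with only the groups compared (Mvk kept, Pmvk and Mvd lost, Hsd17b7 gained with edgeR adjusted p 0.0325), 2 with the replicate block (Mvd lost), and 2 to 4 with 1 library left out. In both genotypes Mvk passed in every fit. Between MKO and WT at rest, and for the difference between running effects, 0 members passed in any fit. After running, DESeq2 called 1 member (Hsd17b7, adjusted p 0.00581), and leaving out 1 library gave 0 to 1, the 1 being Pmvk without exercised MKO replicate 2. For the genotype effect averaged over the states DESeq2 called 1, and leaving out 1 library gave 0 to 2, with 2 without exercised MKO replicate 2. For the averaged running effect the number was 5 to 7; with the replicate block it was 5, of which 4 were among the 6 (Lss and Fasn lost).

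Counts over all genes moved more. With the replicate block 602 genes passed with running in WT (1193 without it) and 361 in MKO (586 without it). The deviations of same-numbered libraries from their group means had correlations of -0.153 to 0.0759. The labels do not say what the numbers stand for, and whether they mark a batch was not tested. Running in MKO gave 316 genes without exercised MKO replicate 2 and 341 without sedentary MKO replicate 2. Between MKO and WT after running, 5 genes passed with edgeR, 119 with DESeq2 and 108 without exercised MKO replicate 2. For the averaged genotype effect these numbers were 2, 141 and 163. The other counts that moved by over 1.5 times were of 0 to 10 genes, all for MKO against WT or for the difference between running effects. Scaling by total counts alone shifted the median log2 fold change of all genes by -0.10 (running in WT), -0.15 (running in MKO) and 0.09 (MKO at rest). The genes called higher and lower with running in WT were then 469 and 863 (599 and 594 with TMM), and in MKO 259 and 596 (332 and 254 with TMM). Under this scaling Srebf1, Srebf2 and Hmgcs1 changed sign with running in WT (-0.08, -0.02 and -0.03). No called value reversed; of the single-gene values 66 changed sign or moved, none of them a called one. Of the median log2 fold changes of the sterol and fatty acid genes 35 moved. The causes were not tested. Members with under 30 counts in every library (Sqle, Elovl6) are limited by depth. Lss and Msmo1 also fell under 30 counts in at least 1 library, with minima of 20 and 28. Fits with only the groups compared give no value for the difference or the averages.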
